A study of Mus musculus with 4 samples.

Results

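Glutathione S-transferases, 10 genes in all, were described in single cortical nuclei of GCLC-KO mice: Gsta3, Gsta4, Gstm1, Gstm5, Gstm7, Gstp1, Gstt1, Gstk1, Mgst1 and Mgst3. They were taken by symbol, as 10 of the 32285 genes in the count tables, and all 10 were found there. Their raw UMIs (unique molecular identifiers, where 1 stands for 1 captured RNA molecule) were summed per library and cell class, and libraries of 3-month-old mice were compared with those of 6-month-old mice. The study knocked out Gclc in forebrain neurons. It described rod-shaped microglia by staining and in situ hybridization. These libraries served it to define a cluster resembling disease-associated microglia. From that cluster it took genes strongly expressed at 3 months, the age at which it saw rod-shaped microglia most often.

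The 4 libraries came from 4 mice, 2 of them 3 months old (3M-1, 3M-2) and the other 2 aged 6 months (6M-1, 6M-2), with 1 mouse in each. Where 4 values are given, they stand in order of age and then of replicate number. All 4 mice had the same genotype, a floxed Gclc allele on a C57BL/6NTac background crossed with CaMKII-Cre, and none was treated. CaMKII-Cre acts mainly in excitatory neurons of the forebrain, so Gclc stays intact in glia and in most interneurons. All libraries carried the knockout and no wild-type library was analysed here, so age was the only contrast, and the course of the knockout and normal ageing cannot be told apart. The titles number the libraries as replicate 1 and 2 at each age, and this replicate number was taken as the batch. Nuclei were stained with DAPI and sorted as singlets before 3′ end sequencing.

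Glutathione S-transferases join the thiol of glutathione to reactive compounds such as the aldehydes made by lipid peroxidation, and the conjugates then leave the cell through transporters. The cytosolic enzymes fall into classes named alpha (Gsta), mu (Gstm), pi (Gstp) and theta (Gstt), Gstk1 is the mitochondrial and peroxisomal kappa enzyme, and Mgst1 and Mgst3 are membrane proteins of a separate family, MAPEG. The synthesis of glutathione, their second substrate, begins with the enzyme whose catalytic subunit Gclc encodes. In the brain, the transferases are best known from astrocytes and other glia.

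By identifier, all 10 genes were placed on GRCm38, the build given by the labels as mm10, with GENCODE M21. Gstm5 (chromosome 3, 107895821 to 107898686), Gstm7 (107926334 to 107931817) and Gstm1 (108012255 to 108017973) lie in a tandem cluster of mu genes. Gsta3 lies on chromosome 1 (21240589 to 21265661), as does Mgst3 (167371966 to 167393841). Gsta4 (chromosome 9, 78182774 to 78209349) lies near Gclc itself (77754535 to 77794485). Gstk1 (42245935 to 42250447) and Mgst1 (138140316 to 138156755) are on chromosome 6, Gstp1 is on chromosome 19 (4035407 to 4037985) and Gstt1 on chromosome 10 (75783813 to 75798584). Sequence shared between family members limits what counts at the 3′ end can tell apart. Of windows of 90 bases in the last 500 bases of the annotated transcripts, 31.1% of those of Gstp1 were also found in Gstp2 and 5.11% of those of Gstm1 in Gstm3, so these 2 genes are less certain. The other 8 genes shared no window. An antisense gene overlaps Gsta3 and another overlaps Gstm5, and whether counting used the strand is not given in the sources used here.

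Promoter windows of 5 genes are shown because these genes set glia apart from neurons or vary among glia and because the family is known as a target of NRF2, which binds the antioxidant response element. RefSeq (GRCm38.p6) gave windows from 250 bases before to 50 bases after a start for 9 of the 10 genes, 12 windows in all. Capitals mark the core TGACNNNGC, searched on both strands. It was found in 4 of the 12 windows, of Gsta3, Gstm5, Gstm7 and Mgst1, against 12.4% of all 32851 windows. Gstk1 and Gstt1 also differ among glia, but their windows, without the core, are not shown. The second windows of Gstm1 and Gstm7, also without it, are not shown either. The windows shown therefore hold the core more often than all 12 do. A match is a string of letters and no measured site.
Gsta3, chr1:21240335-21240634, plus strand: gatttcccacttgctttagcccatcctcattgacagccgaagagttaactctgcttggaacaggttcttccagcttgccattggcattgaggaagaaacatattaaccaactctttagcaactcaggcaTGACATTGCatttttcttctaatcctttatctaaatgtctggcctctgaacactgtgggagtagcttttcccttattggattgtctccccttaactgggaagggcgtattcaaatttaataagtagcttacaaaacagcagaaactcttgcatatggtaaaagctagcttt
Gstm5, chr3:107895604-107895903, plus strand: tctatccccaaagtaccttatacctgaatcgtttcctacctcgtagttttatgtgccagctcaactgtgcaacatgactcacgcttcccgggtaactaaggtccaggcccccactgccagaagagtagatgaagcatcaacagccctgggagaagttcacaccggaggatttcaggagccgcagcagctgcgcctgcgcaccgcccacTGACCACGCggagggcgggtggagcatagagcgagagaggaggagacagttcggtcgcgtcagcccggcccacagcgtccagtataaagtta
Gstm7, chr3:107931565-107931864, minus strand: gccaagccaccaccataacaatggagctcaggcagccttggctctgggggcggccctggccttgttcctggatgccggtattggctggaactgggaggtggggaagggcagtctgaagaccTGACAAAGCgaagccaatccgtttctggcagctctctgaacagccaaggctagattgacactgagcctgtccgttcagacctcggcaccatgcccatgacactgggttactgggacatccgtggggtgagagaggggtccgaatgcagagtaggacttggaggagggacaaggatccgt
Gstm1, chr3:108017769-108018068, minus strand: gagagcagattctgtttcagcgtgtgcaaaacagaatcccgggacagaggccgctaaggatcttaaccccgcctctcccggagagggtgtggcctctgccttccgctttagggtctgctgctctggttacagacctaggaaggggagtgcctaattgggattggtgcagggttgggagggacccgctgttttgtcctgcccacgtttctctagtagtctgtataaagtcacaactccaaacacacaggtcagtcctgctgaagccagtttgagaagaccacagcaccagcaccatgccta
Gstp1, chr19:4037863-4038162, minus strand: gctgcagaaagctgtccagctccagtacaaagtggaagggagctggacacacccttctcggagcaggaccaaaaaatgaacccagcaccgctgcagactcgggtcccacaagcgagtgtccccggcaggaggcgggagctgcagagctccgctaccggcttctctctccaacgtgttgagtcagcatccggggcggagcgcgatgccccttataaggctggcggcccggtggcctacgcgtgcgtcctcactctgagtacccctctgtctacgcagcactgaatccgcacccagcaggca
The core stands once in each of the first 3 windows and not in those of Gstm1 and Gstp1. Only this core was searched, so a window without it is not shown to lack the element.

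Of 30784 barcodes, 30515 nuclei with 250925711 UMIs were kept and 27001 (88.5%) were gated into classes by their marker genes. A library held 59262228 to 65894316 UMIs, with medians of 5994 (3M-2) to 8140 UMIs per nucleus. Excitatory neurons gave 3356 to 4938 nuclei per library, interneurons 773 to 1075, oligodendrocytes 839 to 1512, microglia 389 to 715, oligodendrocyte precursors 160 to 246 and astrocytes 58 to 85. Between 12 and 19 barcodes were shared by a pair of libraries. Gclc, the target, was found in every library, at 42.3, 33.6, 34.7 and 36.5 CPM (UMIs of a gene scaled to 1000000 UMIs of its class) in excitatory neurons and at 68.7, 67.3, 51.1 and 53.2 CPM in microglia. With counting at the 3′ end and no wild-type mouse, the deletion was not measurable and the genotype is given as labelled. As a check of the astrocyte gate, 8 astrocyte genes that took no part in it summed to 9980 CPM in astrocytes and to 0.782% to 2.21% of that in neurons, oligodendrocytes and microglia. In the other direction, 5 neuron genes kept out of the gate summed to 713, 1580, 3860 and 1100 CPM in astrocytes. This was 13.4% of their excitatory level on average, so astrocyte sums also held neuronal RNA, most in 6M-1. It was not particular to astrocytes, with 14.6% in precursors, 14.7% in microglia and 8.68% in oligodendrocytes. The age test called 0 genes in excitatory neurons with edgeR and 1343 at an unadjusted p under 0.05, while DESeq2 called 79. Without 3M-2, edgeR called 2448 there, in a fit with 1 mouse at 3 months that is assumed to vary like the 2 at 6 months.

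The 10 genes were spread unevenly over the classes, and most stood highest in a glial class. In mean CPM, Gstm1, Gstm5, Gsta4 and Gstk1 were highest in astrocytes, Gstm7 and Gstp1 in oligodendrocytes, Gstt1 in astrocytes and precursors, Gsta3 in oligodendrocytes and astrocytes, and Mgst3 in both kinds of neuron. Each class was set against the mean of the fitted log2 levels of the other 5 classes. In that mean a class with very few UMIs weighs as much as any other. Astrocytes had 6 of 10 members higher and 0 lower (15.4% of all genes were called higher there). Oligodendrocytes had 6 higher and 1 lower (29.2% and 28.4% of all genes). Excitatory neurons had 3 higher and 4 lower (35.6% and 29.6%), interneurons 1 higher and 6 lower (31.5% and 26.8%), microglia 0 higher and 4 lower (31.1% and 31.1%), and precursors 1 higher and 0 lower (19.6% and 14.4%). With each nucleus thinned to 1000 UMIs, 7 members were tested. Of these, 2 were called in interneurons, 3 in excitatory neurons, 3 in astrocytes and 4 in oligodendrocytes. The shares of all genes called after thinning are not given here. In interneurons Gstm7 (−1.59) and Gstp1 (−0.67) were then at 0.02 and 0.43 log2 units and were not called. The mean set against Gstm7 includes astrocytes, with 1 UMI. When each library was left out, Gstm7 ran from −2.18 to −0.24 in interneurons and from −1.76 to −0.1 in excitatory neurons. These calls used edgeR's quasi-likelihood test with the mouse as a block and Benjamini-Hochberg adjustment over 16344 genes, with a threshold of 0.05. For differences between a pair of classes, the shares of all genes called are the background. Excitatory neurons differed in 45.6% of genes from interneurons, 70.7% from oligodendrocytes, 51.1% from precursors, 43.1% from astrocytes and 71.7% from microglia. Interneurons differed in 66.7% from oligodendrocytes, 44.5% from precursors, 38.8% from astrocytes and 69% from microglia. Oligodendrocytes differed in 44.9% from precursors, 35.7% from astrocytes and 51.9% from microglia, precursors in 24.4% from astrocytes and 53.3% from microglia, and astrocytes in 41.3% from microglia. CPM is a share of the RNA of a class, so a lower level can be less RNA of the gene or more of others, and it is compared within a gene only.

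**Figure D1:**
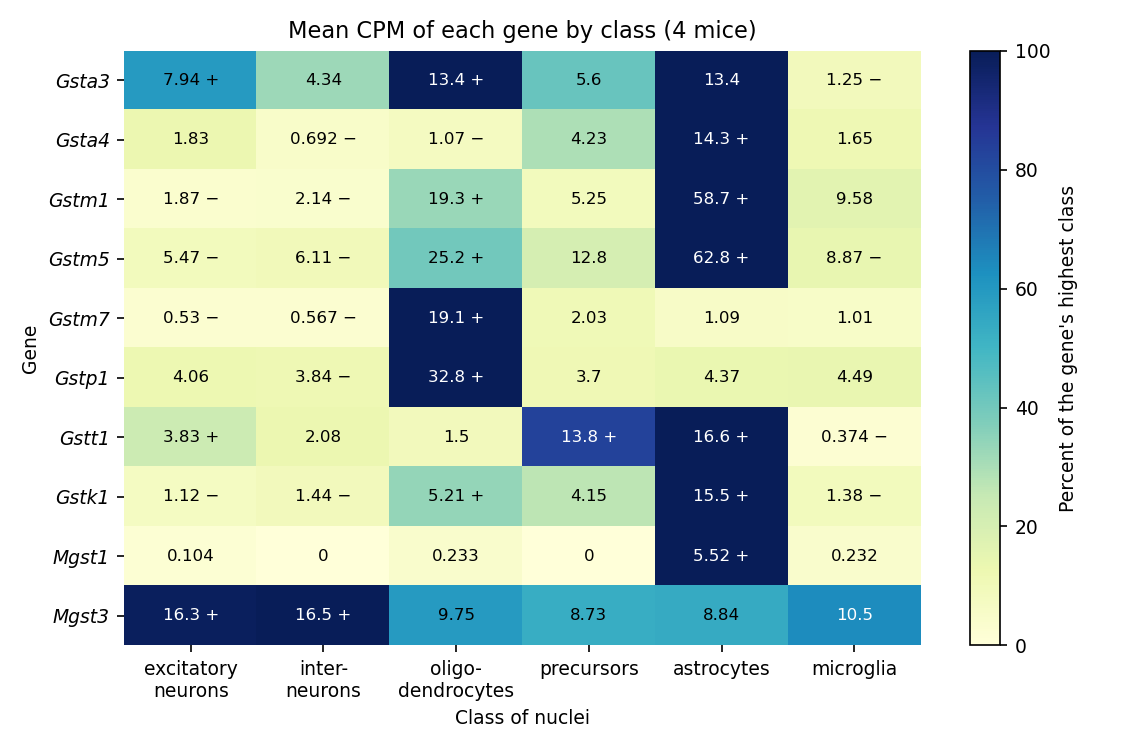
Mean CPM over 4 mice (numbers) of the 10 genes (rows) in 6 classes of nuclei (columns), coloured by percent of the gene's highest class. A plus or minus marks a level called higher or lower than the mean of the fitted log2 levels of the other 5 classes, not than their mean CPM. Gstt1 was thus called higher in excitatory neurons at 3.83 CPM, below 13.8 in precursors and 16.6 in astrocytes. Microglia, with 1 UMI of Gstt1, count fully in that mean. Gstm1 reached 58.7 CPM in astrocytes and 1.87 in excitatory neurons, and Mgst3 ran the other way, with 16.3 CPM in excitatory neurons.

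Gstm1, a mu enzyme that conjugates a wide range of electrophiles, was an astrocyte and oligodendrocyte gene. Astrocytes held 30.5, 92.1, 77.2 and 34.9 CPM, from 53 UMIs in all. Oligodendrocytes held 9.53, 13.6, 32.4 and 21.8 CPM, and excitatory neurons 1.55, 2.06, 1.72 and 2.16 CPM. Every glial value of these classes lay above every neuronal one, and the astrocyte and oligodendrocyte ranges overlapped slightly. The log2 fold change was 4.52 (SE 0.343) between astrocytes and excitatory neurons, with an adjusted p of 6.53e-14 in edgeR. It was 3.23 (SE 0.212, adjusted p = 1.73e-16) between oligodendrocytes and excitatory neurons, and astrocytes exceeded oligodendrocytes by 1.29 (SE 0.296, adjusted p = 5.43e-04). Microglia, at 9.58 ± 1.08 CPM (SD, n = 4), came next and were 1.80 log2 units above excitatory neurons (adjusted p = 5.44e-06). Excitatory neurons and interneurons did not differ beyond their spread (log2 difference 0.05, SE 0.253).

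Gstm5, a mu enzyme known from brain and testis, was likewise highest in astrocytes and then in oligodendrocytes. It stood at 26.1, 70.2, 49.95 and 105 CPM in astrocytes, at 9.13, 33.6, 30.3 and 27.9 CPM in oligodendrocytes and at 3.91, 5.71, 5.98 and 6.28 CPM in excitatory neurons. The astrocyte and oligodendrocyte ranges overlapped through 3M-1, the lowest library of both classes. Astrocytes exceeded oligodendrocytes by 1.08 log2 units (SE 0.28, adjusted p = 0.0022), and oligodendrocytes exceeded excitatory neurons by 2.01 (SE 0.176, adjusted p = 1.56e-12). Precursors held 12.8 ± 4.09 CPM (SD, n = 4), lower than oligodendrocytes by 1.05 log2 units (adjusted p = 0.00198), and interneurons and microglia were not separated from excitatory neurons.

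Gstm7, the neighbour of Gstm5, differed from both other mu genes in that it marked oligodendrocytes and not astrocytes. It reached 11.5, 29.0, 19.9 and 15.8 CPM in oligodendrocytes of the 4 libraries. Excitatory neurons held 0.517, 0.456, 0.715 and 0.431 CPM, far below. Astrocytes gave 1 UMI in 4 libraries, where Gstm1 gave 53 and Gstm5 57, and precursors gave 6 UMIs. The log2 fold change between oligodendrocytes and excitatory neurons was 4.95 (SE 0.258, adjusted p = 1.69e-19), and between oligodendrocytes and microglia 4.39 (SE 0.463, adjusted p = 1.37e-10). No fold is given against astrocytes, since 1 UMI does not bear one. The excitatory level was 2.77% of that in oligodendrocytes.

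Gstp1, the pi enzyme and a textbook marker of oligodendrocytes, was likewise highest in that class. Its level there was 17.1, 24.5, 34.2 and 55.4 CPM, and each of these was above the highest value in any library of the other 5 classes, 8.73 CPM in astrocytes of 6M-2. It exceeded excitatory neurons by 2.84 log2 units (SE 0.167, adjusted p = 6.22e-18) and precursors by 3.40 (SE 0.347, adjusted p = 9.48e-11). Among the other 5 classes, all of them between 3.70 and 4.49 CPM on average, no pair passed the test. Gstp2, which shares transcript ends with it, was counted with 1, 1, 3 and 2 UMIs in oligodendrocytes beside 43, 38, 115 and 165 UMIs of Gstp1.

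The alpha genes behaved differently from each other. Gsta3, which handles lipid peroxidation products and steroids, stood at 13.9, 7.74, 17.5 and 14.4 CPM in oligodendrocytes, at 5.66, 8.14, 9.65 and 8.29 CPM in excitatory neurons, and at 3.06, 4.44, 5.26 and 4.61 CPM in interneurons. Astrocytes had the same mean as oligodendrocytes, 13.4 CPM, from 12 UMIs of which 7 were in 6M-1. Oligodendrocytes exceeded excitatory neurons by 0.67 log2 units (SE 0.199, adjusted p = 0.00338), and their ranges overlapped through 3M-2. Excitatory neurons exceeded interneurons by 1.09 (SE 0.191, adjusted p = 1.13e-05). In microglia, 6 UMIs gave 15.7% of the excitatory level, against 10.6% to 19.8% for 5 neuron genes kept out of the gate (Rbfox3, Snap25, Syt1, Grin1 and Meg3), so Gsta3 there stood no higher than these neuronal genes. Gsta4, which clears the lipid aldehyde 4-hydroxynonenal, was an astrocyte gene. It stood at 13.1, 13.2, 9.08 and 21.8 CPM in astrocytes from 13 UMIs, against 1.53, 2.45, 1.81 and 1.53 CPM in excitatory neurons, a log2 difference of 2.56 (SE 0.513, adjusted p = 7.76e-05). Oligodendrocytes held 10 UMIs, or 1.07 ± 0.708 CPM (SD, n = 4), lower than excitatory neurons by 1.00 log2 unit (SE 0.432, adjusted p = 0.0387).

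Gstt1, a theta enzyme that acts on small halogenated compounds, was higher in precursors than in oligodendrocytes, as was Gsta4 (log2 difference 1.82, SE 0.6, adjusted p = 0.0118), while Gsta3, Gstm1, Gstm5, Gstm7 and Gstp1 were lower in precursors. Precursors held 13.1, 17.4, 14.6 and 10.1 CPM and oligodendrocytes 0.794, 1.29, 0.892 and 3.02 CPM, with no overlap. The log2 difference for Gstt1 was 2.95 (SE 0.421, adjusted p = 1.90e-07). Astrocytes, at 8.70, 13.2, 27.2 and 17.5 CPM, and precursors were not separated (log2 difference 0.18, SE 0.467). The astrocyte values rest on 15 UMIs, of which 6 were in 6M-1. The 8 astrocyte genes kept out of the gate summed to 39.0% of their astrocyte level in precursors, but Gpc5 carried most of that (54.6%), and the other 7 stood at 0.655% to 19.7%. Gstt1 in precursors was 83.1% of its astrocyte level. Excitatory neurons held 3.87, 3.60, 4.51 and 3.33 CPM, higher than interneurons by 1.07 log2 units (SE 0.23, adjusted p = 1.74e-04). Microglia gave 1 UMI in all 4 libraries.

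Gstk1 was again highest in astrocytes, at 13.1, 17.5, 18.2 and 13.1 CPM from 14 UMIs. Oligodendrocytes followed with 3.57, 5.81, 4.76 and 6.72 CPM, a log2 difference of 1.32 (SE 0.519, adjusted p = 0.0442), and excitatory neurons held 0.585, 1.19, 1.36 and 1.34 CPM. The difference between oligodendrocytes and excitatory neurons was 2.05 log2 units (SE 0.316, adjusted p = 3.85e-07), and precursors did not differ from oligodendrocytes beyond the spread (0.39, SE 0.476).

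Of the membrane enzymes, Mgst3, which reduces lipid hydroperoxides and conjugates leukotriene A4, was the one gene of the list highest in neurons. Excitatory neurons held 14.6, 14.5, 21.2 and 15.1 CPM and interneurons 16.2, 16.5, 16.2 and 16.9 CPM, with no difference between them that passed the test (log2 0.19, SE 0.126). Oligodendrocytes held 8.34, 9.68, 9.22 and 11.8 CPM, all below every neuronal value, and were lower than excitatory neurons by 0.87 log2 units (SE 0.177, adjusted p = 3.89e-05). Microglia held 13, 4.49, 13.3 and 11.3 CPM and were lower by 1.08 (SE 0.221, adjusted p = 4.59e-05). Their mean was 64.4% of that in excitatory neurons, well above the 10.6% to 19.8% of the neuron genes kept out of the gate. Oligodendrocytes, precursors, astrocytes and microglia were not separated from each other. Mgst1, a membrane enzyme of mitochondria and endoplasmic reticulum, was close to absent, with 28 UMIs in all gated nuclei. Of these, 18 were in excitatory neurons and 5 in astrocytes, and 0 in interneurons and precursors. No fold is given for it, although astrocytes were called higher (adjusted p = 3.19e-04), since the fitted value depends on the prior count.

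**Figure D2:**
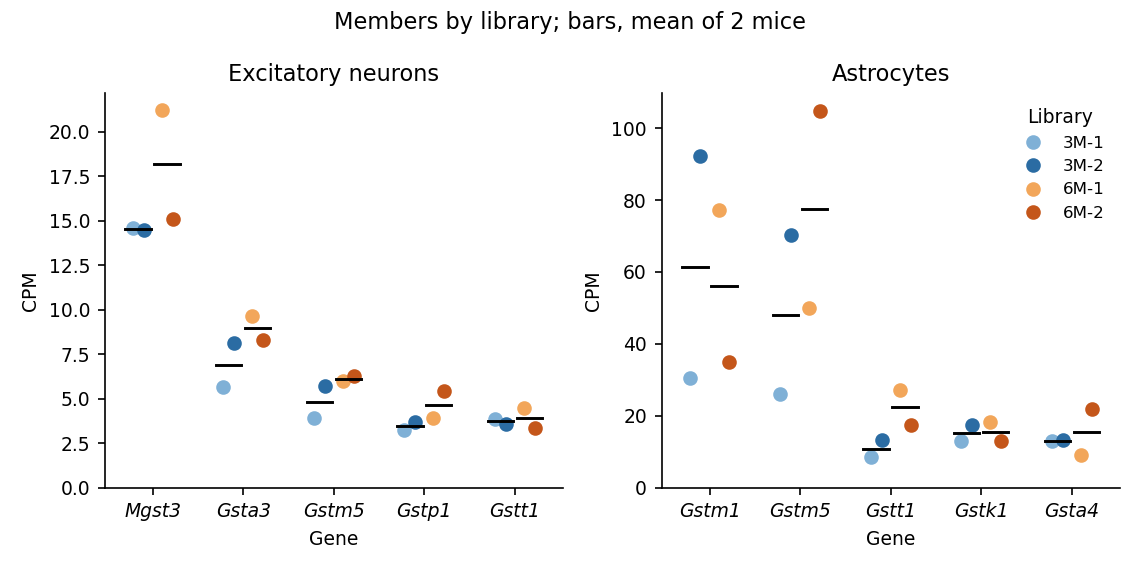
CPM of members in excitatory neurons (left) and astrocytes (right) of each library (points, 1 mouse each), with the mean of 2 mice per age (bars). The astrocyte points of Gstm1 lie at 30.5 and 92.1 CPM at 3 months and at 77.2 and 34.9 CPM at 6 months, while the excitatory points of Gstt1 stay between 3.33 and 4.51 CPM.

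Patterns over classes were compared by Pearson's r of log2 CPM over 31 class-by-library sums, which share libraries and differ in depth, so r is a description. Among pairs of members, Gstm7 and Gstp1 were most alike (r = 0.728), followed by Gsta3 and Gstm5 (0.699), Gstm1 and Mgst1 (0.645) and Gstm1 and Gstk1 (0.613), while Gstm1 and Gstm5 reached 0.395. Mgst1 had only 28 UMIs in gated nuclei, so its r depends on the prior count and on depth. Vascular sums held 0 UMIs of both Gsta3 and Gstm5. The order of these pairs is therefore not a ranking over the 6 classes. Among 16343 other genes, Gstm1 was closest to Srebf1, the transcription factor of lipid synthesis (0.914), then Acadl (0.876) and Myl12a (0.875). Gstm5 was closest to 5430427M07Rik (0.946), Hsdl2 (0.945) and 4930426I24Rik (0.926). Gstm7 was closest to Trim59 (0.882), Klhl4 (0.859) and Gm10687 (0.847), and Gstp1 to Nfe2l3 (0.808), the myelinating glia enzyme Car2 (0.80) and Ppp1r14a (0.763). Gsta3 was closest to Gm31152 (0.913), Zfp973 (0.886) and Col16a1 (0.881). Among the genes most like Gsta4 were Wwtr1 (0.885) and Atp13a5 (0.855). For Gstt1 these genes were Tpd52l1 (0.848), the mitochondrial calcium channel gene Mcu (0.833) and A730049H05Rik (0.817). For Gstk1 they were the complement gene C4b (0.835), Selenbp1 (0.833) and Dnaic2 (0.825), and for Mgst3 Socs7 (0.942), Bbs4 (0.932) and Syt3 (0.932).

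Between 3 and 6 months, none of the 10 genes passed edgeR's test in any of the 6 classes, and DESeq2 also called 0 of them. At an unadjusted p under 0.05, 2 passed in oligodendrocytes and 0 in each of the other 5 classes. The share of all genes at that level was 7.43% in oligodendrocytes, 6.82% in excitatory neurons, 4.07% in interneurons, 4.83% in precursors, 5.34% in astrocytes and 6.91% in microglia. Gstm1 and Gstp1 in oligodendrocytes came nearest. In oligodendrocytes, Gstm1 stood at 9.53 and 13.6 CPM in the younger mice and at 32.4 and 21.8 CPM in the older, from 24, 21, 109 and 65 UMIs. Both 6-month values were above both 3-month values. The means were 11.5 ± 2.84 and 27.1 ± 7.49 CPM (SD, n = 2 each). The fitted log2 fold change was 1.18 (SE 0.315), with an adjusted p of 0.331 in edgeR over 12435 genes, of which 0.0322% were called. Gstp1 stood at 17.1 and 24.5 CPM at 3 months and at 34.2 and 55.4 CPM at 6 months, again without overlap, with means of 20.8 ± 5.26 and 44.8 ± 15.0 CPM (SD, n = 2 each). Its log2 fold change was 1.04 (SE 0.286), with an adjusted p of 0.356 in edgeR.

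The call on these 2 genes changed with the low-count filter. With all genes of at least 1 UMI tested, both passed in edgeR, with adjusted p of 0.0261 for Gstm1 and 0.0215 for Gstp1. The count of all genes called in that setting is not given here, so these 2 calls stand without a background. Without 3M-2 both passed as well (0.0211 and 0.0142), together with Gstm5 (0.00668), but the 1 mouse left at 3 months has no replicate and the spread then comes from the 2 older mice alone. With the replicate number as a block in edgeR, the adjusted p was 0.109 for Gstm1 and 0.101 for Gstp1. With DESeq2 it was 1.00 and 0.977, and without 3M-1 it was 0.236 and 0.203. Of all genes tested in these nuclei, 25.9% had both 6-month values above both 3-month values, and 3 of the 7 members did. A design of 2 mice against 2 allows no exact permutation p below 0.333.

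**Figure D3:**
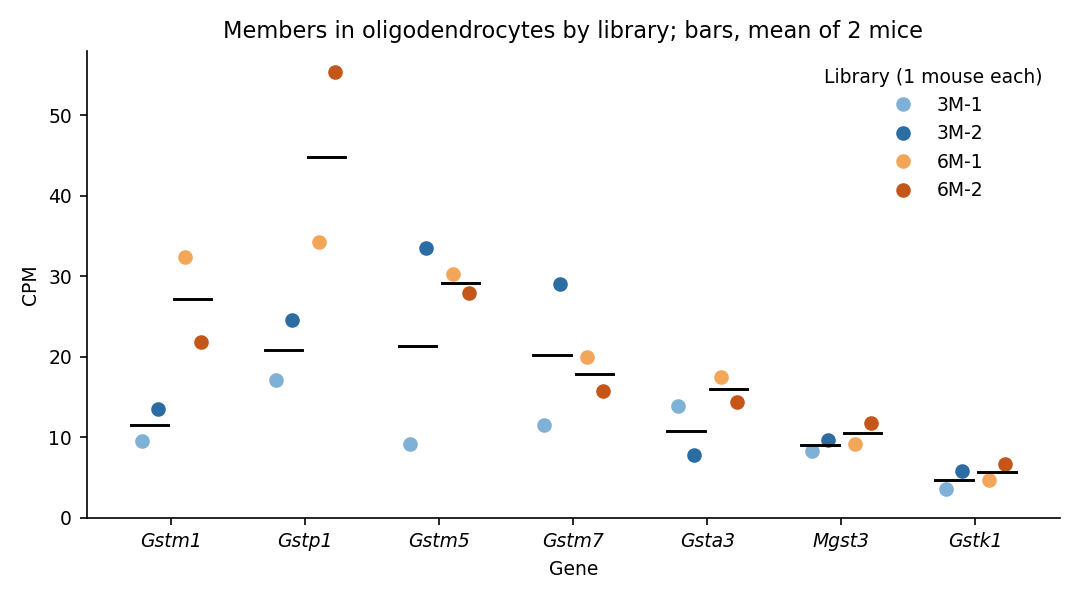
CPM in oligodendrocytes of each library (points, 1 mouse each) for the 7 members tested there, with the mean of 2 mice per age (bars). Gstm1 and Gstp1 show both 6-month points above both 3-month points, and Gstm5 and Gstm7 show 3M-1 and 3M-2 far apart.

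None of the other 5 members tested in this class passed by age. Gsta3 also lay higher in both 6-month libraries (13.9 and 7.74 against 17.5 and 14.4 CPM), with a log2 fold change of 0.40 (SE 0.345, adjusted p = 0.842). Gstm5 (log2 fold change 0.48, −0.23 without 3M-1) stood at 9.13 CPM in 3M-1 but at 33.6 CPM in 3M-2, above both 6-month values of 30.3 and 27.9 CPM. Gstm7 showed the same split, with 11.5 and 29.0 CPM at 3 months around 19.9 and 15.8 CPM at 6 months. The 2 young mice thus differed more from each other than from the old ones in both genes. Gstk1 (log2 fold change 0.25, SE 0.482) and Mgst3 (0.13, SE 0.345) overlapped between ages. Gsta4, Gstt1 and Mgst1 had 10, 16 and 3 UMIs in this class and did not enter the test. Of 10 members, 7 entered it, and 6 of these had a fold change above 0, with a median of 0.40 against 0 over all genes tested.

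Oligodendrocytes of the older mice also held far more nuclei with a UMI of C4b, a complement gene that marks reactive oligodendrocytes. Their share was 6.94% and 3.46% at 3 months and 34.2% and 41.7% at 6 months. Between nuclei with and without C4b of the same mice, none of the 6 members tested passed (0.611% of all genes did). Gstm1 stood at 24.9 CPM with C4b and 19.7 CPM without, a log2 difference of −0.05 with the mouse as a block (SE 0.267, adjusted p = 1.00), and Gstp1 at 47.5 and 30.1 CPM, a difference of 0.23 (SE 0.207, adjusted p = 1.00). Most C4b-positive nuclei came from the older mice. Mgst3 was 8.04 CPM with and 10.4 CPM without C4b (log2 difference −0.57, SE 0.422). Within nuclei without a C4b UMI, a comparison added after the data were seen, the age difference was close in size to that in the whole class. Gstm1 stood there at 9.83, 12.7, 33.2 and 22.1 CPM (log2 fold change 1.24, SE 0.333, adjusted p = 0.378, with 0.0173% of genes called and 6.54% at an unadjusted p under 0.05) and Gstp1 at 17.1, 25.4, 30.0 and 52.7 CPM (0.88, SE 0.311, adjusted p = 0.685). Gating on 1 UMI takes deeper nuclei more often, and a nucleus without one may still express C4b.

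**Figure D4:**
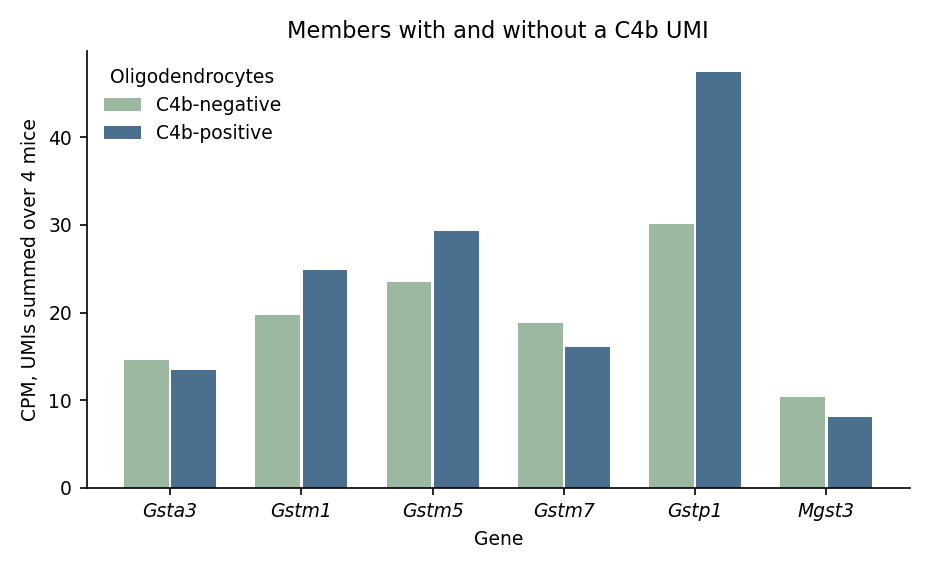
CPM of the 6 members tested, from UMIs summed over 4 mice, in oligodendrocytes without (left bars) and with (right bars) a C4b UMI. Gstp1 stands at 30.1 and 47.5 CPM and Gstm1 at 19.7 and 24.9 CPM, and neither difference passed the test within mice.

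In neurons no difference between ages passed. In excitatory neurons 9 of 10 members were tested and 8 had a fold change above 0, with a median of 0.29 against 0 over all genes, and 0% of genes were called. There, 5 members lay higher in both 6-month libraries, a pattern seen for 21.9% of all genes tested there. These were Gsta3 (log2 fold change 0.35, SE 0.228, adjusted p = 0.816, and −0.01 with nuclei thinned to 1000 UMIs), Gstm5 (0.32, SE 0.242), Gstp1 (0.40, SE 0.262), Gstk1 (0.58, SE 0.381) and Mgst3 (0.29, SE 0.211). Mgst3 was high in 6M-1 alone, at 21.2 CPM, while 6M-2 was at 15.1 CPM beside 14.6 and 14.5 CPM at 3 months. Gstt1 (0.03, SE 0.26) and Gstm1 (0.07, SE 0.297) were near 0, and Gsta4 had a negative value (−0.28, SE 0.316). Mgst1 had 18 UMIs and was not tested. In interneurons 7 members were tested, with values from 0.01 (Mgst3, SE 0.193) to 0.63 (Gstk1, SE 0.474), and 0% of genes were called. Gsta3, Gstm1 and Gstk1 lay higher in both older mice there and no tested member lower, where 17.3% of all genes lay higher and 16.7% lower.

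In microglia 3 members were tested, where 0.0261% of all genes were called. Gstm5 was at 6.50 and 4.49 CPM at 3 months and at 14.0 and 10.5 CPM at 6 months, from 7, 3, 20 and 13 UMIs, with a log2 fold change of 1.08 (SE 0.529, adjusted p = 0.758). Gstm1 was at 8.36, 8.97, 10.5 and 10.5 CPM (0.26, SE 0.48), and Mgst3 at 13, 4.49, 13.3 and 11.3 CPM (0.35, SE 0.529, and −0.12 without 3M-2). Gstp1 was not tested, with 4, 0, 10 and 9 UMIs. In astrocytes 2 members were tested and 0% of genes were called. Gstm1 overlapped fully (30.5 and 92.1 against 77.2 and 34.9 CPM), and Gstm5 in part (26.1 and 70.2 against 49.95 and 105 CPM). In precursors 0.0104% of genes were called, and Gstm5 (0.68, SE 0.509) and Gstt1 (−0.23, SE 0.5) were not among them. Gstm5 lay higher in both older mice, as did 16.7% of all genes tested in precursors. Over the 6 classes, 30 tests of a member against age were made.

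**Figure D5:**
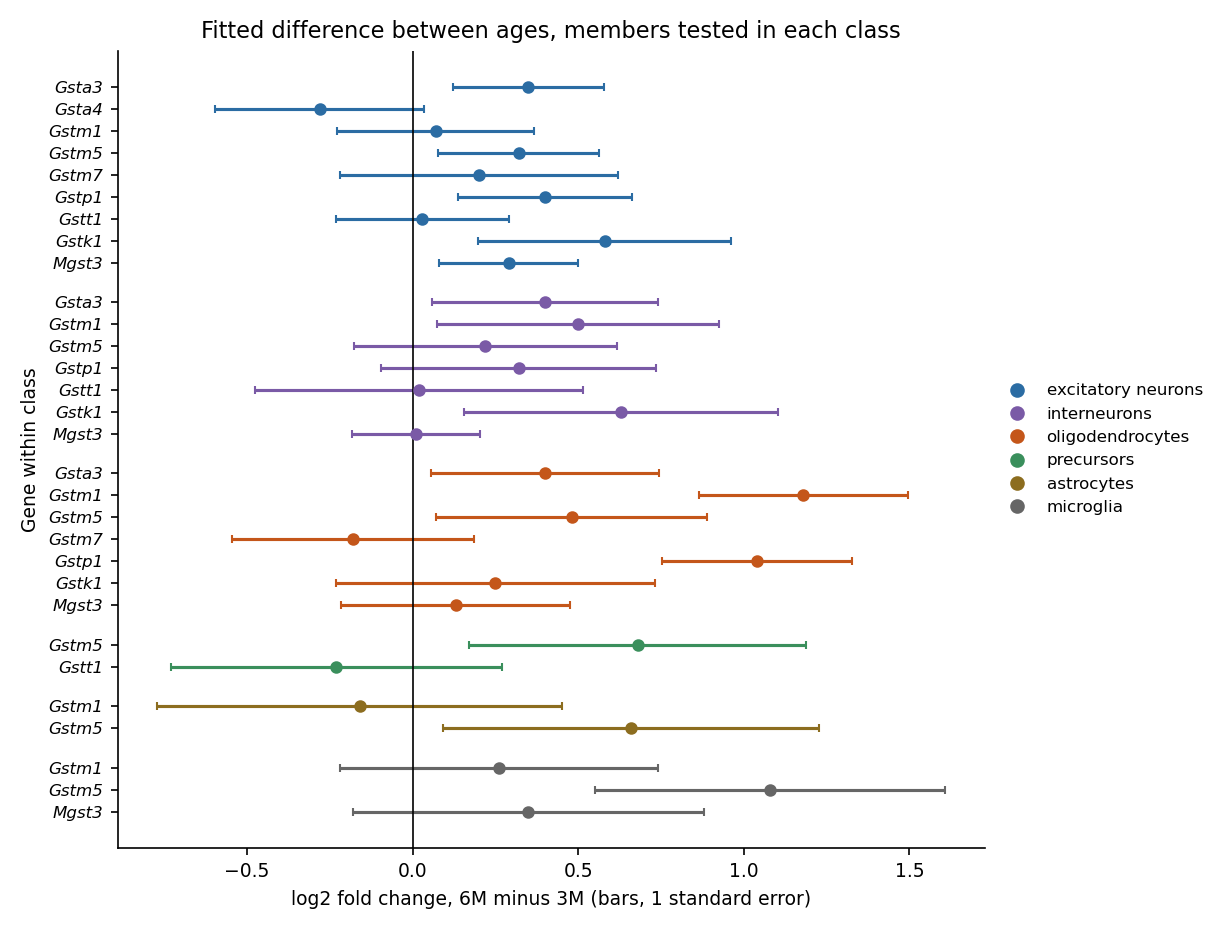
Fitted log2 fold change of 6-month against 3-month libraries (points) with 1 standard error (bars) for the members tested in each class. Gstm1 (1.18) and Gstp1 (1.04) in oligodendrocytes lie farthest from 0 in units of their error, and no point passed the test.

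Whether the age effect in oligodendrocytes differed from that in excitatory neurons was tested with the mouse as a block. This comparison was added after the data were seen. For Gstm1 the difference was 1.13 log2 units (SE 0.405, adjusted p = 0.234 in edgeR) and for Gstp1 0.67 (SE 0.283, adjusted p = 0.389), and 0 of 9 members tested passed, where 1.30% of all genes did. A difference between these classes in age response was therefore not shown for any member tested. Of the surrounding genes tested, Gss passed (−0.86, SE 0.216, adjusted p = 0.0276).

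Among microglia, nuclei with at least 2 of 10 DAM markers (genes of disease-associated microglia) were compared with the rest. No member had enough UMIs to enter this test, in which 6.43% of genes were called. Summed over mice, Gstm5 had 14 UMIs in DAM-gated nuclei and 29 in others (11.9 and 8.94 CPM), Gstm1 7 and 36 (5.97 and 11.1 CPM), Mgst3 10 and 40 (8.53 and 12.3 CPM) and Gstp1 8 and 15 (6.82 and 4.63 CPM). With all genes of at least 1 UMI tested, 0 of the 10 members passed, and DESeq2 called 0.

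Genes around the family were tested by class in the same fit. The shares of all genes called higher and lower were 31.1% and 31.1% in microglia, 35.6% and 29.6% in excitatory neurons and 31.5% and 26.8% in interneurons. They were 29.2% and 28.4% in oligodendrocytes, 15.4% and 13.4% in astrocytes and 19.6% and 14.4% in precursors. The counts of list genes given below are read beside these shares. Of 18 other glutathione S-transferase genes, 11 were measured well enough to be tested, and in microglia 5 were higher and 3 lower. Hpgds, the prostaglandin D2 synthase of the sigma class, was higher there by 3.99 log2 units (SE 0.0895) and Gstt2 by 2.36 (SE 0.188), Gstcd was higher by 0.71 and Gstt3 was also called, while Gdap1 (−1.37), Gstz1 (−0.60) and Gdap1l1 (−0.88) were lower. Gdap1 and Gdap1l1, related proteins of mitochondria, were instead higher in excitatory neurons (1.12 and 1.09), as was Gstz1 (0.27), and Gsto2 (−1.68), Gstcd (−0.68) and Gstt2 (−0.73) were lower there. In oligodendrocytes Gsto2 was higher (1.68), Gstm6 was called higher and Hpgds (−1.77), Gstt2 (−0.89), Gdap1l1 (−0.82) and Gdap1 (−0.32) were lower. In astrocytes Gstt2 (1.94) and Gsto2 (1.65) were higher, Gstm6 and Gstt3 were called higher, and Gdap1 (−1.14) and Hpgds (−1.05) were lower. Of 4 other MAPEG genes, the 2 tested, Ltc4s (adjusted p = 2.14e-28) and Alox5ap (adjusted p = 7.70e-16), which serve leukotriene synthesis, were higher in microglia. Ltc4s was lower in DAM-gated than in other microglia by 1.21 log2 units (SE 0.165, adjusted p = 2.29e-04).

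Of 10 genes of glutathione supply and turnover, 9 were tested. The list joins genes of synthesis with genes of breakdown such as Chac2, so its counts have no single direction. In astrocytes 5 were higher and 0 lower, among them the cystine carrier Slc7a11 (adjusted p = 4.73e-25), Oplah (2.23), Slc3a2 (0.66) and Gclm (0.75), the modifier subunit of the Gclc enzyme. In oligodendrocytes 5 were higher, with Gss, the synthase that completes glutathione, at 1.25 (SE 0.156), Gclm at 0.83 and Chac2 at 0.36, Ggct was called higher (adjusted p = 8.25e-07), and Slc3a2 (−0.57) and Slc7a11 (adjusted p = 0.00168) were lower. Excitatory neurons had Gclc slightly higher (0.28, SE 0.096) and Oplah (−1.18) and Gsr (−0.31) lower. In precursors 0 were higher and 6 lower, in interneurons 4 higher and 1 lower, and in microglia 2 higher and 4 lower. Of 13 genes of conjugate export and mercapturate formation, 10 were tested. Excitatory neurons had 4 higher and 3 lower, interneurons 1 and 4, oligodendrocytes 3 and 4, precursors 3 and 1, astrocytes 2 and 2, and microglia 5 and 2. Not all of these genes are named here. Excitatory neurons were higher for Ggt7 (1.24), Abcc4 (0.82), Abcc5 (0.27) and Abcc1 (0.27), which encodes a major exporter of glutathione conjugates, and lower for Ggt5 (adjusted p = 0.0151) and Ggt1 (adjusted p = 0.0214). Oligodendrocytes were higher for Abcc5 (0.44) and Acy3, and lower for Abcc4 (−2.33), Ggt7 (−0.71), Abcg2 (−0.50) and Ggt5 (adjusted p = 0.0243).

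Of 13 genes of other dehydrogenases and reductases, listed for aldehyde clearance, 12 were tested. A place in this list does not show that an enzyme acts on aldehydes. In astrocytes 7 were higher, led by Aldh1l1 (4.96), Aldh1a1 (5.43), Aldh7a1 (1.91) and Aldh2 (2.16), with Akr1b3 lower (−1.08). Akr1b3, an aldose reductase, was higher in oligodendrocytes by 2.73 log2 units (SE 0.0838), beside Adh5 (1.08), Aldh1a1 (1.05) and Aldh1l1 (0.53), and Aldh2 (−1.49), Cbr3 (−2.02) and Aldh7a1 (−0.38) were lower. In excitatory neurons 0 were higher and 6 lower, among them Aldh9a1 (−0.93), Akr1b3 (−0.94), Akr1a1 (−0.60) and Adh5 (−0.91). Interneurons were alike in this, with 0 higher and 7 lower. By age, 188 tests of these 5 lists in the 6 classes gave 0 calls with edgeR, 9 at an unadjusted p under 0.05, and 0 with DESeq2. The smallest adjusted p was 0.385 for Slc7a11 in excitatory neurons, singled out after its values were seen, with a log2 fold change of 1.30 (SE 0.28). As a further comparison, DAM-gated microglia had Slc3a2 higher (0.61, SE 0.167) and Abcc3 lower (−0.76, SE 0.198).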

How the data were processed

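The authors' deposited files held UMI counts per gene and barcode for 4 libraries, made with Cell Ranger (7.0.0 in the matrix headers) against mm10, with no normalization. Strand and intron settings are not given in the sources used here. Barcodes with more than 7000 detected genes or over 1% mitochondrial counts were left out, as in the study. Nuclei were gated with Python 3.11.15 on at least 2 markers of a class, without clustering. The marker share of a nucleus was taken relative to the median of nuclei with at least 3 markers of that class. Nuclei whose best relative level was under 0.25, or with under 2 markers of every class, were left out (2755). In place of a doublet caller, nuclei with at least 3 markers of a rival class, at above 0.5 of their own relative level, were left out (759). Of gated nuclei, 2150 lay near the limit, under 2 times the least level. Nxph1 and Adarb2 were dropped from the interneuron markers after their counts were seen.

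Counts were summed per mouse and class, for classes with at least 10 nuclei. edgeR 4.0.16 (R 4.3.3) was used with TMM, filterByExpr, two-sided quasi-likelihood tests and adjustment by Benjamini-Hochberg across every tested gene. Ages were fitted per class without a block. Classes and states were fitted with the mouse as a block, and contrasts took the 6 classes present in all 4 libraries. DESeq2 1.42.0, RLE factors, no low-count filter (all genes with at least 1 UMI), a stricter gate, all barcodes, thinning to 1000 UMIs and leaving out each mouse were alternatives. The replicate number was taken as the batch at both ages, and the paper names no processing batch. Same-numbered libraries did not deviate together (correlation −0.116 in excitatory neurons and −0.0302 in interneurons and in precursors, −0.0561 in oligodendrocytes, −0.0575 in astrocytes and −0.028 in microglia). P-values by age within a class measure the spread between these mice. Where the mouse was a block, they measure the spread that remains among classes or states within mice. In simulated data with 200 changed genes, the oligodendrocyte age test (12400 genes) recovered 61% of changes of 1 log2 unit and 100% of changes of 2. It made 12 false calls. Every simulated gene was given the same spread and only better-counted genes were changed, so these rates do not hold for the members. The 10 members are always named, other list genes where they passed (up to 4 a list and direction), and the 3 genes most alike for members with at least 200 UMIs. The members and lists were chosen with earlier results of these data known. Some genes that these rules select are not reported here.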

Additional observations from a re-analysis of the deposited data

How the results depend on the processing

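In oligodendrocytes, 0 members passed by age as reported, 2 with no low-count filter and 0 to 3 when each library was left out, and 3M-2 was the library whose removal gave 3. The count of all genes called with no low-count filter is not given here. Among C4b-negative oligodendrocytes, a comparison added after seeing the data, values were also refitted without each library. The log2 fold change by age then ran from 0.89 to 1.5 for Gstm1 and from 0.45 to 1.23 for Gstp1. Leaving out a library leaves 1 mouse at that age, which is assumed to vary like the other age. Without 3M-2 the calls over all genes rose to 2448 in excitatory neurons, 827 in interneurons, 663 in oligodendrocytes, 565 in microglia, 214 in precursors and 106 in astrocytes. In the order excitatory neurons, interneurons, oligodendrocytes, precursors, astrocytes and microglia, DESeq2 called 79, 5, 28, 0, 0 and 8 genes by age, against 0, 0, 4, 1, 0 and 3 with edgeR. By class, 7 members were tested after thinning each nucleus to 1000 UMIs. Of these, 3 were called in excitatory neurons, 2 in interneurons, 4 in oligodendrocytes and 3 in astrocytes. How many of all genes were then called is not given here. When each mouse was left out, interneurons ran from 4 to 8 members called, lowest without 6M-2, beside 8365 to 8598 of all genes. The cause of these shifts was not tested, beyond the fewer UMIs and genes that thinning leaves.

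With the replicate block no member passed by age in any class, and the calls over all genes were 4, 5, 65, 27, 0 and 70 in the same order. Pairing 3M-1 with 6M-2, chosen after seeing the data, gave 122, 12, 25, 2, 74 and 19 calls in the same order and 0 members.

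Several age values that did not pass the test changed sign, from as far as 0.48 (Gstm5 in oligodendrocytes). In excitatory neurons Gstt1 was 0 with DESeq2 and −0.02 with all deposited barcodes, and Gsta3 was −0.01 after thinning. In interneurons Gstt1 was −0.03 with DESeq2 and −0.06 with the replicate block, and Mgst3 was −0.01 with DESeq2, 0 with no low-count filter and −0.38 after thinning. Against the other classes, Gstm7 and Gstp1 in interneurons were 0.02 and 0.43 after thinning. Gstm1 in C4b-positive oligodendrocytes was 0.28 with no mouse block. Leaving out each library, the log2 values in excitatory neurons ran from −0.15 to 0.23 for Gstm1, −0.54 to 0.02 for Gsta4, −0.19 to 0.19 for Gstt1 and −0.20 to 0.48 for Gstm7. In interneurons they ran from −0.26 to 0.88 for Gstm5, −0.04 to 0.05 for Mgst3, −0.77 to 0.47 for Gstt1 and −0.13 to 0.68 for Gstp1. In oligodendrocytes they ran from −0.23 to 1.52 for Gstm5, −0.06 to 0.51 for Gstk1, −0.72 to 0.48 for Gstm7 and −0.03 to 0.29 for Mgst3. The range was −0.55 to 0 for Gstt1 in precursors, −0.87 to 0.83 for Gstm1 in astrocytes, −0.12 to 1.44 for Mgst3 in microglia and −0.11 to 0.03 for Gstm1 between C4b states. Some values rest on few counts, with 14 UMIs of Gstk1 and 5 of Mgst1 in astrocytes.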

Other observations

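Spiny neurons of the striatal type were summed in each mouse but entered no contrast. Mgst3, a membrane enzyme, was found there with 12 and 7 UMIs in the younger mice and with 20 and 2 UMIs in the older, where 6M-2 gave 9 nuclei. Gsta3 was found with 10 and 1 UMIs at 3 months and with 10 and 2 UMIs at 6 months. In 71 vascular nuclei Gsta4 was found with 0, 1, 1 and 2 UMIs and Gstm1 with 0, 0, 1 and 3, in order of age and replicate number, and Gsta3 and Gstm5 with 0 in every mouse. No test was made on these values.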
